A study of Xenopus laevis with 27 samples.

Results

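The 6 genes followed here are gclm.L, gclc.L, osgin1.L, prdx6.L, keap1.S and gpx4.S, taken by name from the 42903 genes in the deposited tables of an RNA-seq study of limb amputation in the adult frog Xenopus laevis. Each name matched exactly 1 gene, which the tables list as gene9536, gene20451, gene7862, gene7395, gene17560 and gene44534, in the same order. They were chosen with their levels in these libraries known, so their levels and differences are given below as descriptions, with no p-value. X. laevis carries a duplicated genome, and the suffixes .L and .S mark the 2 copies of a gene. The other copies keap1.L, prdx6.S and gpx4.L are given beside the members, and gclm.S, gclc.S and osgin1.S were not analysed here.

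RNA was sequenced from 3 tissues, blastema (the cell mass that forms at an amputation wound), brain and stump, in 3 treatment groups with 3 libraries each, 27 libraries in all. The progesterone group is labelled as treated with the steroid hormone progesterone, which the study's title describes as a brief local dose from a wearable device. The silk group is labelled silk treatment, which the design text equates with sham, and the no device group is the control. The title calls the frogs adult. The labels used here do not state their strain, sex or age in months, when after amputation tissue was taken, or how many frogs stand behind a library. The p-values below therefore measure the spread between these libraries, which may be technical.

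Glutathione is the main small thiol with which cells reduce peroxides and tag reactive compounds. Its synthesis starts with glutamate-cysteine ligase, an enzyme of a catalytic subunit (gclc) and a modifier subunit (gclm). KEAP1 holds the transcription factor NRF2 (nfe2l2) at low levels by passing it to an E3 ubiquitin ligase built on CUL3, and oxidants or electrophiles release NRF2, which in mammals switches on gclm, gclc, osgin1 and many other antioxidant genes.

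The values are FPKM, fragments scaled to gene length and to the size of the library. Libraries held an estimated 178828 to 3445336 reads, and the 6 shallowest libraries were limb libraries of the progesterone and silk groups. Libraries 1 and 3 of the blastema progesterone, brain no device and stump no device groups were near-identical. In these pairs 0.475%, 0.318% and 0.354% of the genes compared passed a chi-square test on read estimates (adjusted p under 0.05), against 1.51% to 49.2% for other pairs within a group. Each such pair was averaged and counted as 1 sample, so those 3 groups have n = 2, the other 6 have n = 3, and 24 samples remain. Brain silk 3 was as close to 2 libraries of another group, brain no device 1 and 3 (0.314% and 0.312%), and was left where its label puts it. A single gene, smad4.1.S, took 22.2%, 38.7% and 39.4% of all reads in the blastema silk libraries and at most 1.11% in any no device library. In blastema with progesterone it took 2.03%, 25.8% and 4.04%. In stump its share was 16.1%, 0.968% and 2.04% with progesterone and 20.8%, 31.2% and 0.718% with silk. Brain silk libraries held 11.6%, 10.2% and 0.762%. Its share thus differed with treatment, and a large share lowers the FPKM of all other genes in that library. Stump without a device and brain carried the markers of their labels. Summed skeletal muscle markers were 46150 to 75610 FPKM in stump without a device, and summed neuron and glia markers 3768 to 6780 FPKM in all brain libraries. In stump with a device the muscle markers summed to 4453 to 24350 FPKM (progesterone) and 5914 to 12210 FPKM (silk). Blastema without a device held 16250 to 30360 FPKM, so these markers do not check the stump label in the device groups.

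In the limb, 4 of the genes (gclm.L, gclc.L, osgin1.L and keap1.S) were higher in stump with either device than in stump without one, by 1.29 to 2.66 on the log2(FPKM + 1) scale. Of all genes tested, 29.3% were higher in every stump library with progesterone than in any without a device, and 22.8% with silk. In blastema the same 4 genes and prdx6.L were higher with silk than without a device, and 3 of them (gclm.L, gclc.L and osgin1.L) were lower with progesterone than with silk. Of all genes tested there, 2.68% were higher in every silk library than in any without a device. Lower in every progesterone library than in any silk library were 1.8%. gpx4.S is listed at 0 FPKM in 2 of the 3 blastema silk libraries, where reads were too few to tell its level from that without a device. In brain the 5 members tested differed by at most 0.55 on that scale between any pair of treatments. These differences carry standard errors of 0.55 to 1.15 in the limb and 0.19 to 0.44 in brain.

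gclm.L encodes the modifier subunit of glutamate-cysteine ligase. In blastema it was at 44.1, 10.8 and 48.6 FPKM with progesterone, at 66.1, 96.9 and 126.4 FPKM with silk and at 13.9, 19.2 and 39.2 FPKM without a device. All silk libraries lay above all libraries of the other 2 groups, and the progesterone and no device libraries overlapped, with progesterone 2 lowest of all. In stump it was at 137.1, 30.8 and 61.6 FPKM with progesterone, at 48.6, 57.1 and 132.3 FPKM with silk and at 7.07, 12.9 and 10.0 FPKM without a device. The 2 device groups overlapped each other in stump and did not meet the no device libraries. In brain the 9 libraries lay between 15.0 and 21.4 FPKM.

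The mean of gclm.L in blastema was 28.6 ± 25.1 FPKM with progesterone (SD, n = 2), 96.5 ± 30.2 FPKM with silk (n = 3) and 24.1 ± 13.4 FPKM without a device (n = 3). On the log2(FPKM + 1) scale it differed by 2.04 ± 0.70 (difference ± standard error from limma) between silk and no device, by 0.04 ± 0.78 between progesterone and no device and by −1.996 ± 0.78 between progesterone and silk. The last became −0.99 without blastema progesterone 2 and −2.997 without the averaged progesterone 1 and 3. In stump the mean was 76.5 ± 54.7 FPKM with progesterone (n = 3), 79.3 ± 46.1 FPKM with silk (n = 3) and 10.7 ± 3.06 FPKM without a device (n = 2). The stump differences were 2.50 ± 0.73 for progesterone and 2.66 ± 0.73 for silk, each minus no device. With 1 sample left out in turn they stayed between 1.96 and 3.02 for progesterone and between 2.22 and 2.94 for silk.

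gclc.L, the catalytic subunit, was lower than gclm.L in FPKM in every library. In blastema it was at 4.52, 0 and 4.54 FPKM with progesterone, at 9.31, 11.2 and 7.97 FPKM with silk and at 4.56, 4.57 and 6.34 FPKM without a device. The silk libraries again lay above all others. The 0 in progesterone 2 allows up to 5.14 FPKM, the worth of 3 reads in that library, and the other 2 progesterone libraries stood just under the lowest no device library, so a difference between progesterone and no device was not detectable at this depth. In stump gclc.L was at 12.4, 6.02 and 6.87 FPKM with progesterone, at 4.05, 3.89 and 11.2 FPKM with silk and at 0.89, 2.37 and 1.58 FPKM without a device, with no library of either device group as low as any without one. The stump differences were 1.72 ± 0.62 for progesterone and 1.29 ± 0.62 for silk, each minus no device, and the silk value became 0.86 without stump silk 3. In brain it ran between 2.86 and 9.97 FPKM.

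The 2 subunits did not keep a fixed ratio in the limb. gclm.L FPKM divided by gclc.L FPKM had a median of 8.64 in blastema with silk (7.10 to 15.9) and 4.19 without a device (3.04 to 6.19), and was 9.75 and 10.7 in the 2 progesterone libraries with gclc.L reads. In stump the ratio was 8.96 with progesterone (5.12 to 11.02), 12.0 with silk (11.8 to 14.7) and 6.34 without a device (5.43 to 7.94). The silk libraries did not overlap those without a device in either limb tissue. In brain the ratio stayed between 1.51 and 5.49. Few reads lie under these ratios, since gclc.L had 0 to 14.0 estimated reads per blastema library and 4.0 to 32.8 per stump library.

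osgin1.L encodes an oxidative stress induced growth inhibitor, known in mammals as an NRF2 target. In blastema it was at 7.86, 5.26 and 7.88 FPKM with progesterone, at 17.96, 14.04 and 22.85 FPKM with silk and at 1.05, 5.29 and 3.88 FPKM without a device. Silk was the highest group with no overlap, while progesterone 2 and no device 2 were almost level. These levels rest on few reads. Per blastema library osgin1.L had 2.7 to 21.2 estimated reads with progesterone, 9.1 to 15.2 with silk and 2.0 to 6.1 without a device. In stump it was at 15.1, 5.28 and 11.6 FPKM with progesterone, at 11.7, 6.30 and 21.8 FPKM with silk and at 2.26, 0.78 and 0.73 FPKM without a device. The difference between silk and no device was 2.25 ± 0.61 in blastema and 2.61 ± 0.67 in stump, and that between progesterone and no device was 0.91 ± 0.69 in blastema and 2.36 ± 0.67 in stump. In brain osgin1.L lay at 0.19 to 1.02 FPKM and did not pass the filter on low values, so no brain difference was fitted for it.

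keap1.S, a copy of the sensor that holds NRF2 in check, was at 23.3, 13.0 and 26.5 FPKM in blastema with progesterone, at 28.2, 22.1 and 24.6 FPKM with silk and at 10.1, 12.3 and 15.3 FPKM without a device. In stump it was at 24.5, 17.2 and 40.8 FPKM with progesterone, at 17.0, 12.7 and 31.5 FPKM with silk and at 4.49, 7.74 and 4.33 FPKM without a device. No library with silk in blastema, or with either device in stump, fell into the range of its no device group. The differences from no device were 0.51 ± 0.61 for progesterone and 0.95 ± 0.55 for silk in blastema, and 1.97 ± 0.62 for progesterone and 1.54 ± 0.62 for silk in stump. In brain keap1.S lay between 3.82 and 8.68 FPKM.

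The other copy, keap1.L, was higher in FPKM than keap1.S in every limb library except blastema silk 2 and had the same order of groups in stump. It averaged 40.5 ± 12.4 FPKM in stump with progesterone, 40.1 ± 22.1 FPKM with silk and 9.91 ± 0.91 FPKM without a device (n = 3, 3 and 2). The authors' deposited tables give keap1.L log2 fold changes of 1.06 (q = 0.0260) for progesterone and 1.01 (q = 0.0263) for silk, each over no device in stump. In blastema keap1.L was at 41.6, 20.7 and 58.9 FPKM with silk and at 20.7, 19.4 and 30.3 FPKM without a device. With progesterone it was at 30.8, 13.6 and 34.3 FPKM, and both device groups overlapped the no device group. Its blastema differences from no device were −0.12 ± 0.70 for progesterone and 0.67 ± 0.63 for silk. keap1.S made up a median of 38.5% of both copies in stump with progesterone, 33.0% with silk and 34.4% without a device. In brain its share was 53.7%, 59.6% and 66.1% in the same 3 treatments. Reads of 40 nt can be shared by 2 near-identical copies, so the split between copies is uncertain.

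prdx6.L, a peroxiredoxin known in mammals to reduce phospholipid peroxides with glutathione, did not follow the 4 genes above. In blastema it was at 32.9, 25.0 and 44.0 FPKM with progesterone, at 90.3, 22.9 and 17.1 FPKM with silk and at 11.1, 5.54 and 16.3 FPKM without a device. Both device groups lay above the no device group, silk 3 by less than 1 FPKM, and 1 silk library held the highest value. In stump it was at 25.7, 35.7 and 25.8 FPKM with progesterone, at 22.1, 5.66 and 32.7 FPKM with silk and at 29.6, 30.0 and 38.4 FPKM without a device, with all 3 groups overlapping. The differences from no device were 1.53 ± 0.82 for progesterone and 1.62 ± 0.74 for silk in blastema, and −0.15 ± 0.71 for progesterone and −0.93 ± 0.71 for silk in stump. Without blastema silk 1 the blastema silk value became 0.91. The stump silk value became −0.24 without stump silk 2 and −1.41 without stump silk 3. In brain it ran from 1.58 to 9.48 FPKM.

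The other copy, prdx6.S, was at 3.27, 22.3 and 4.93 FPKM in stump with progesterone, at 0, 2.05 and 22.4 FPKM with silk and at 24.3, 15.6 and 20.8 FPKM without a device. In each device group 1 library lay within the range without a device and the others below it. The stump differences from no device were −1.24 ± 1.17 for progesterone and −2.25 ± 1.17 for silk. Without stump silk 1 or stump silk 3 the silk value became −1.23 or −3.50, and without stump progesterone 1 or 2 the progesterone value became −0.75 or −1.97. The 0 in stump silk 1 allows 7.56 FPKM. The authors' deposited table gives prdx6.S a log2 fold change of −2.09 (q = 0.0102) for silk over no device in stump. In blastema it was at 12.97, 0 and 15.92 FPKM with progesterone, at 5.44, 0 and 7.42 FPKM with silk and at 4.79, 8.01 and 4.41 FPKM without a device.

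gpx4.S is a copy of the selenoenzyme that clears lipid peroxides and is known to guard cells against ferroptosis. In blastema it was at 41.2, 7.91 and 30.1 FPKM with progesterone, at 10.4, 0 and 0 FPKM with silk and at 16.4, 11.9 and 14.7 FPKM without a device. Its fitted difference there was −2.75 ± 0.97 between silk and no device and 3.01 ± 1.09 between progesterone and silk. Both values take the 2 silk libraries as 0. The progesterone and silk libraries overlapped, and progesterone 2 held 1.0 estimated reads. The gene is short, and 3 reads are worth 18.6 and 19.3 FPKM in the silk libraries that list it at 0, so a difference from the level without a device was not detectable at this depth. The whole blastema silk group held 2.2 estimated reads of gpx4.S, all in silk 1. In stump it was at 9.41, 32.1 and 0 FPKM with progesterone, at 25.4, 16.2 and 26.1 FPKM with silk and at 18.02, 15.81 and 18.41 FPKM without a device, and the 3 groups overlapped. The other copy, gpx4.L, was at 80.3, 0 and 71.6 FPKM in blastema with progesterone. There it was at 102.3, 17.5 and 18.3 FPKM with silk and at 25.0, 48.2 and 27.4 FPKM without a device. Its blastema difference between progesterone and silk was −1.925 ± 1.52, where the 0 in progesterone 2 allows 22.3 FPKM. In stump gpx4.L was at 23.5, 75.7 and 46.0 FPKM with progesterone, at 33.2, 15.1 and 57.5 FPKM with silk and at 76.2, 85.7 and 60.5 FPKM without a device. Every silk library lay below those without a device, where 5.56% of all genes tested were lower in this way. The stump differences from no device were −0.80 ± 0.71 for progesterone and −1.28 ± 0.71 for silk. They became −0.37 without stump progesterone 1 and −0.79 without stump silk 2. The authors' deposited tables give log2 fold changes of −1.41 (q = 0.0160) for progesterone and −2.01 (q = 0.000590) for silk, each over no device in stump.

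**Figure D1:**
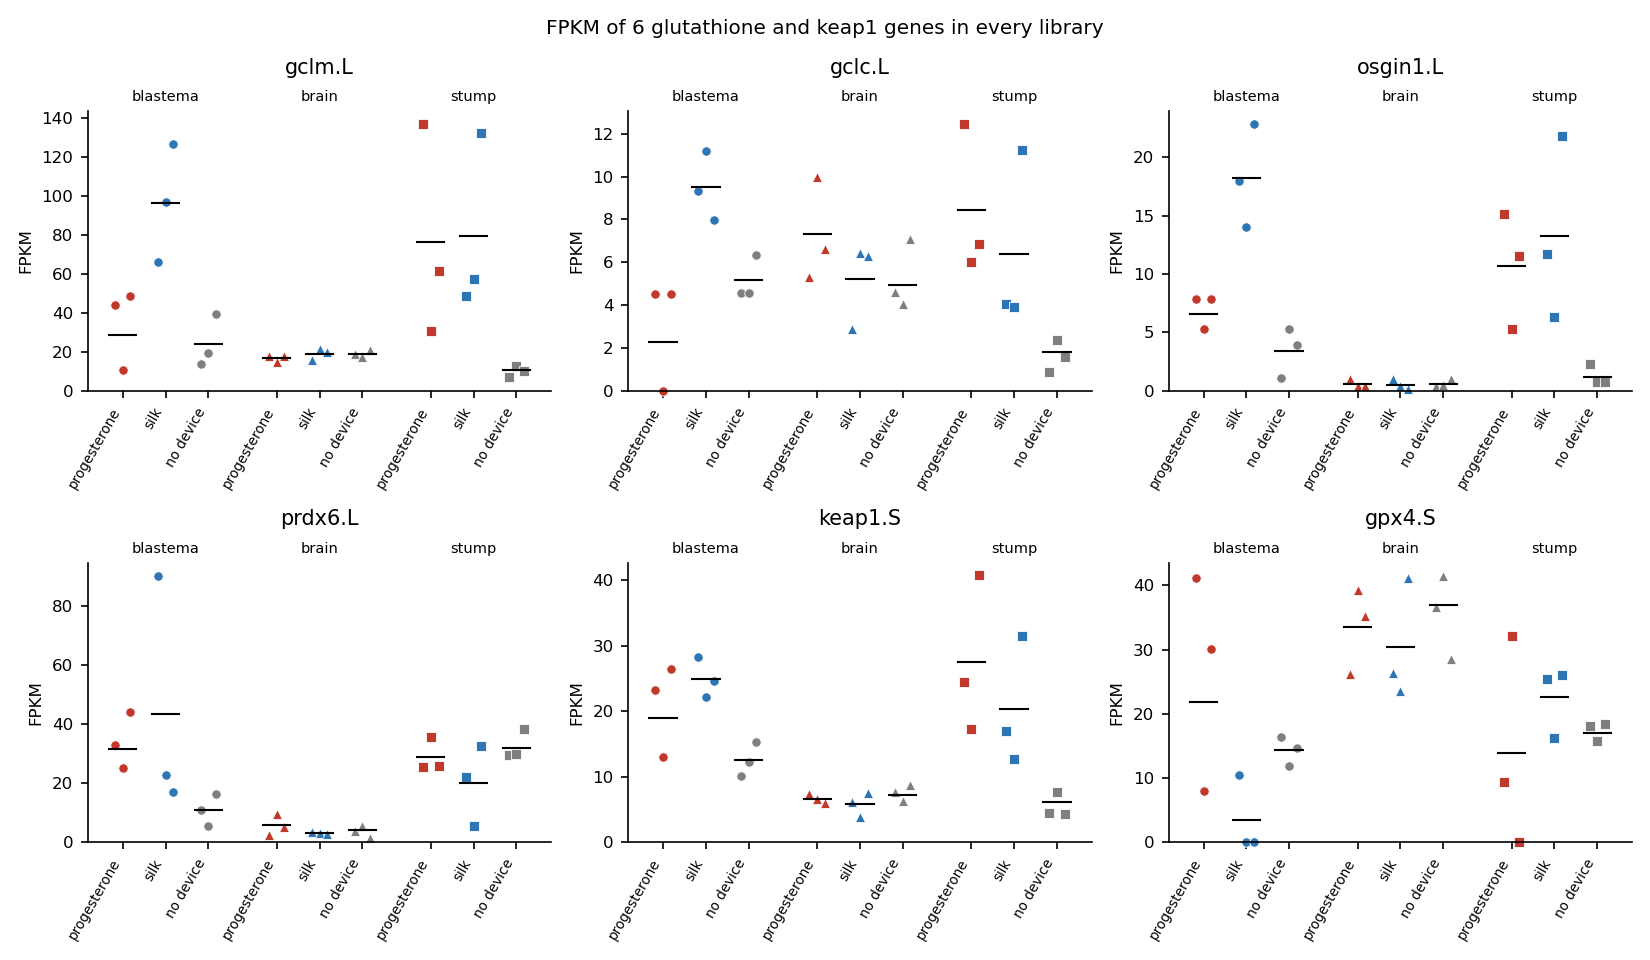
FPKM (linear axis from 0) of each of the 6 members in every library, by tissue and treatment; each point is a library and the black line is the group mean after averaging near-identical libraries. In stump, gclm.L, gclc.L, osgin1.L and keap1.S lie higher in every library with a device than in any without one, and in blastema gclm.L, gclc.L and osgin1.L are highest with silk. Of all genes tested in stump, 29.3% lie higher in this way with progesterone and 22.8% with silk.

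The plot of every library shows where single libraries set a mean. Stump progesterone 1 and stump silk 3 held the 2 highest stump values of gclm.L, gclc.L and osgin1.L, and blastema progesterone 2 was the lowest of its group for all 6 members. Without blastema progesterone 2, the difference of gclm.L between progesterone and no device became 1.05, and without the averaged progesterone libraries it became −0.96, so its sign in blastema was decided by single samples. The difference of gclc.L in the same comparison was −1.38 with all samples and ran from −2.61 to −0.14 with 1 sample left out. In that comparison osgin1.L became 0.43 without blastema no device 1, and keap1.S became 0.06 without the averaged progesterone libraries and 0.95 without progesterone 2.

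**Figure D2:**
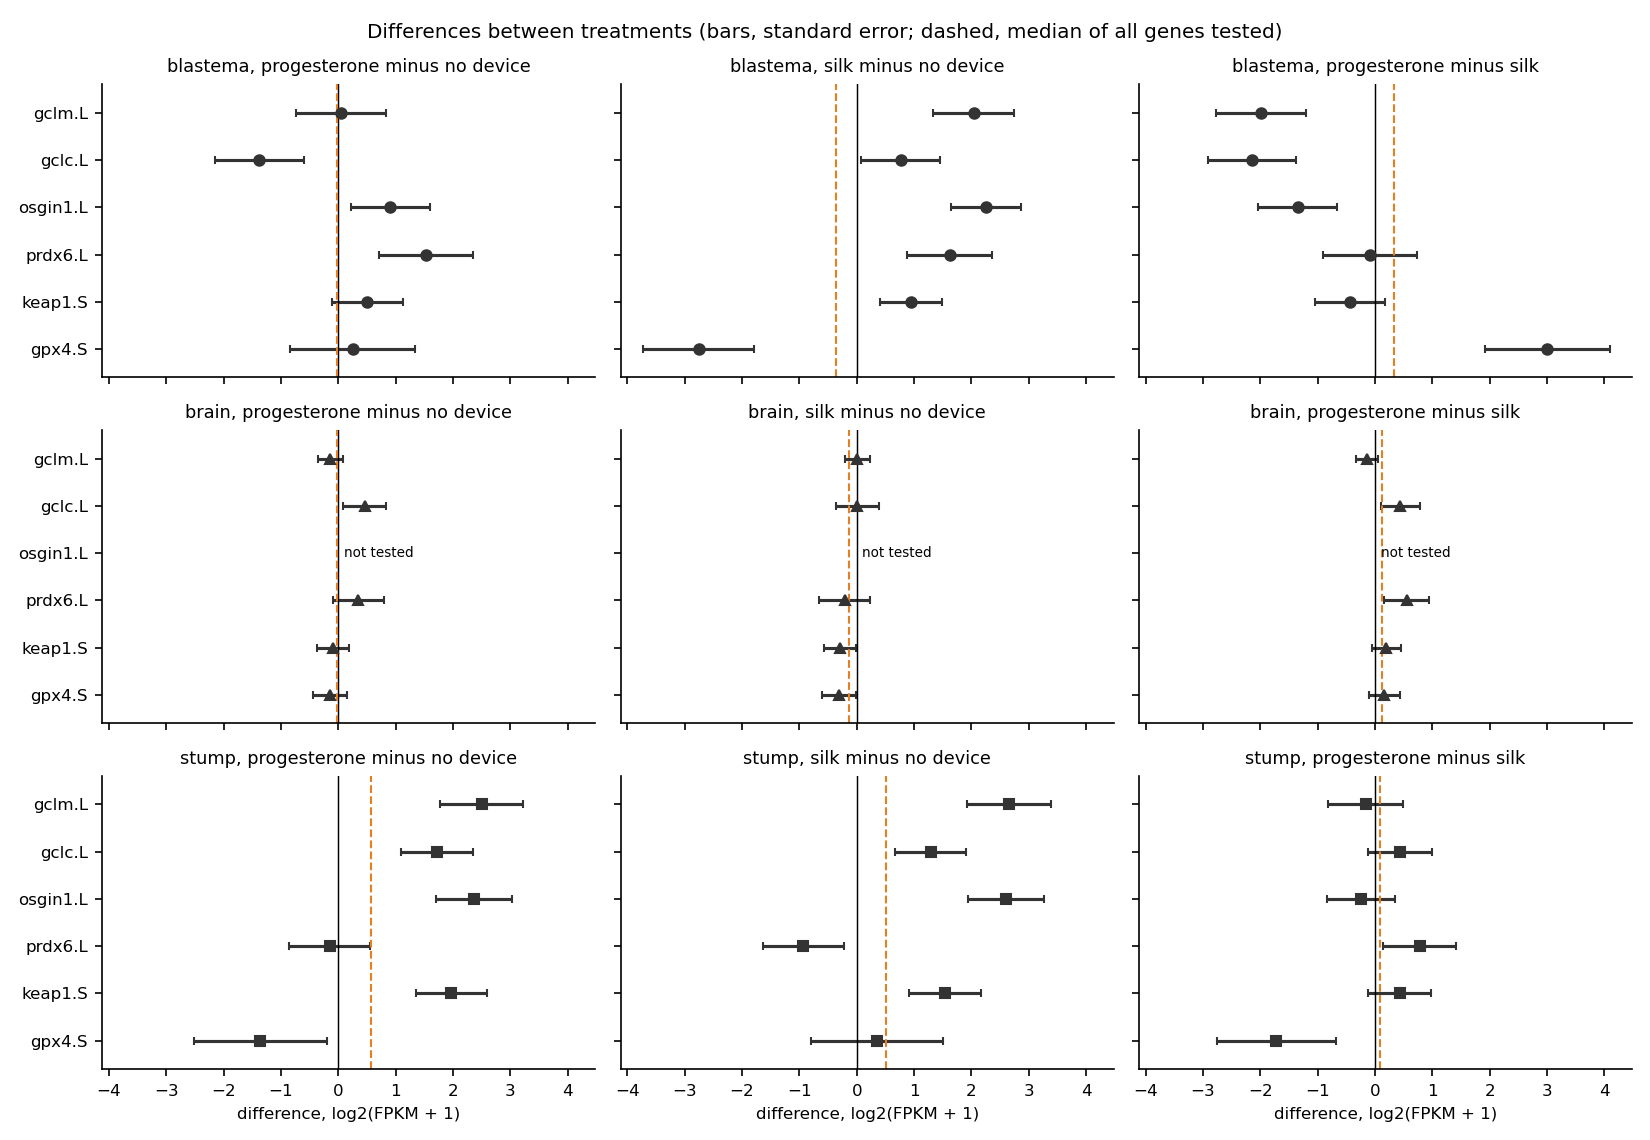
Differences between treatments of the 6 members on the log2(FPKM + 1) scale, by tissue (rows) and pair of treatments (columns); points are limma estimates, bars their standard errors, and the dashed line the median difference of all genes tested. In stump, the differences from no device of gclm.L, gclc.L, osgin1.L and keap1.S were 1.29 to 2.66, and the median of all genes was 0.57 for progesterone and 0.52 for silk.

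The plot of differences sets the members against a shift of all genes. The median difference over all genes tested was −0.36 between silk and no device in blastema, 0.33 between progesterone and silk in blastema, 0.57 between progesterone and no device in stump and 0.52 between silk and no device in stump. Relative to those medians, gclm.L differed by 2.40 between silk and no device in blastema, by 1.93 between progesterone and no device in stump and by 2.14 between silk and no device in stump. keap1.S differed by 1.31, 1.40 and 1.025 in the same 3 comparisons. The values were 2.61, 1.795 and 2.09 for osgin1.L and 1.13, 1.155 and 0.77 for gclc.L. For prdx6.L they were 1.98, −0.72 and −1.44, so it lay below the median of all genes in stump. gpx4.S between silk and no device in stump had a difference of 0.36 ± 1.15, below the median of all genes, and −0.27 under median-of-ratios scaling. The other limb differences of more than 1 named above kept their sign under every scaling tried.

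How often whole groups fail to overlap depends on the comparison, since the members were picked on these values and many other genes separate too. In blastema, 1 member was higher and 1 lower in all libraries with progesterone than in any without a device, where 3.72% and 8.54% of all genes tested did so. With silk 5 members were higher and 1, gpx4.S with its 2 libraries at 0, lower than without a device, against 2.68% and 12.1% of all genes. Between progesterone and silk 0 members were higher and 3 lower, against 7.53% and 1.8% of all genes. In stump, 4 members were higher with progesterone and the same number higher with silk than without a device, and 0 were lower, where 29.3% and 22.8% of all genes were higher and 5.08% and 5.56% lower. Between progesterone and silk in stump 0 members were apart, where 3.21% of all genes were higher and 3.08% lower. In brain 0 of the 5 members tested were apart in any pair of treatments. Brain silk 3 was near-identical to brain no device 1 and 3, which limits how far silk and no device can lie apart in brain. Of all genes tested there, 5.76% were higher and 7.12% lower with progesterone than without a device, 2.22% and 7.91% with silk than without a device, and 9.8% and 3.19% with progesterone than with silk.

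**Figure D3:**
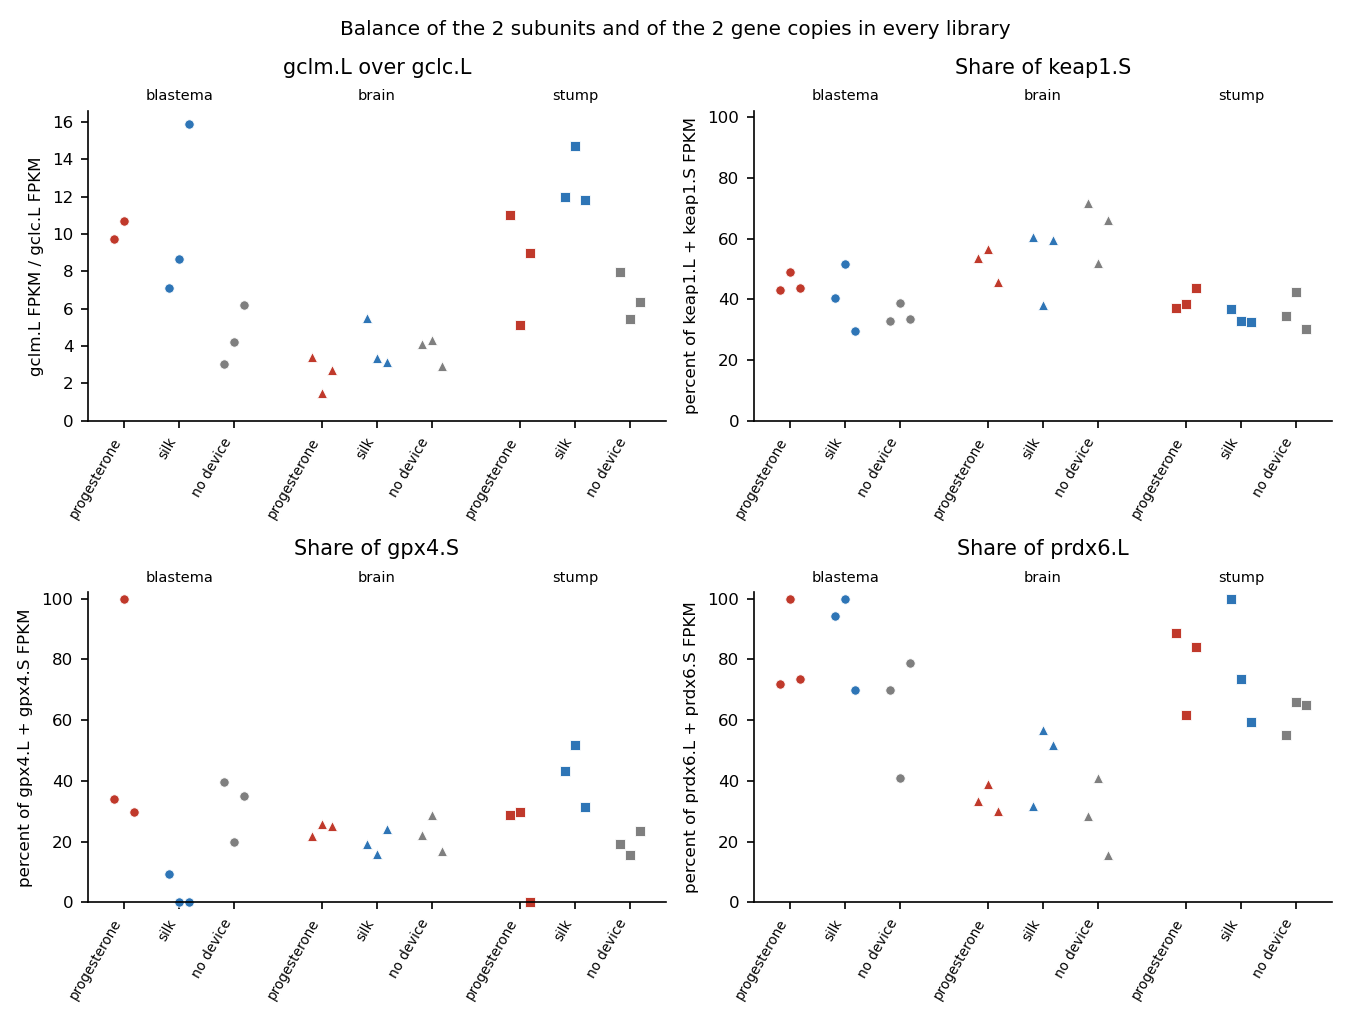
Ratio of gclm.L to gclc.L (FPKM over FPKM) and share of 1 copy in the sum of both copies of keap1, gpx4 and prdx6 (percent of FPKM) in every library, by tissue and treatment; blastema progesterone 2 has no ratio because gclc.L is listed at 0. The ratio in silk libraries ran from 7.10 to 15.9 in blastema and from 11.8 to 14.7 in stump, above every no device library of the same tissue.

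The plot of ratios and shares also shows how thin some of these values are. gpx4.S made up 0%, 0% and 9.23% of both gpx4 copies in blastema silk libraries and 19.8% to 39.6% without a device, and 100% in blastema progesterone 2, which listed gpx4.L at 0. The share of prdx6.L was 69.8% to 100% in blastema with silk and 40.9% to 78.7% without a device. In brain its share was 30.1% to 38.8% with progesterone, 31.6% to 56.6% with silk and 15.6% to 41.0% without a device. These brain shares also rest on few reads. prdx6.L had 7.3 to 20.7 estimated reads per brain library with progesterone, 3.0 to 7.0 with silk and 4.0 to 10.0 without a device.

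Levels without any device are set against tissue next, as a description, since the members were chosen with these libraries known. gclm.L, gclc.L and keap1.S were higher in every blastema library than in any stump library and prdx6.L was lower, where 38.4% of all genes tested were higher and 4.12% lower. Their differences, blastema minus stump, were 1.00 ± 0.64 for gclm.L, 1.15 ± 0.60 for gclc.L, 0.96 ± 0.47 for keap1.S and −1.57 ± 0.69 for prdx6.L. All genes tested had a median of 0.82 in this comparison, so the first 3 sat 0.14 to 0.33 above it, and prdx6.L sat 2.39 below it. Between brain and stump, gclm.L, gclc.L and gpx4.S were higher in every library and prdx6.L lower, where 41% of all genes were higher and 9.19% lower. prdx6.L differed by −2.77 ± 0.75 there, with 3.75, 5.36 and 1.58 FPKM in brain and 29.6, 30.0 and 38.4 FPKM in stump. gclm.L (0.78 ± 0.70) and gpx4.S (1.07 ± 1.15), brain minus stump, turned to −0.29 and −0.03 under median-of-ratios scaling.

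Ordered by group mean, gclm.L and osgin1.L shared their first 5 places, blastema silk, stump silk, stump progesterone, blastema progesterone and blastema no device, and neighbouring groups in that order overlapped. The steps where the libraries of neighbouring groups did not overlap were that from brain progesterone to stump no device for gclm.L and that from blastema no device to brain no device for keap1.S. For gclc.L, osgin1.L, prdx6.L and gpx4.S every neighbouring pair of groups overlapped. gpx4.S was highest in brain, with means of 33.6, 30.4 and 37.0 FPKM for progesterone, silk and no device. Its blastema silk mean of 3.47 ± 6.004 FPKM takes as 0 the 2 libraries that allow 18.6 and 19.3 FPKM, so the place of that group in the order was not detectable at this depth.

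The response to a device was also set against tissue. For progesterone minus no device, the blastema difference minus the stump difference was −2.46 ± 1.08 for gclm.L, −3.10 ± 0.98 for gclc.L, −1.46 ± 0.94 for osgin1.L and −1.46 ± 0.83 for keap1.S, and 1.68 ± 1.10 for prdx6.L. All genes had a median of −0.49 there. Under median-of-ratios scaling the same 4 values were −1.44, −2.33, −0.72 and −0.49. With 1 sample left out gclm.L ran from −3.46 to −1.45 and gclc.L from −4.33 to −1.86, the lower end without the averaged blastema progesterone libraries 1 and 3 and the upper end without blastema progesterone 2. The gclc.L value with all samples takes its level in blastema progesterone 2 as 0, where 3 reads are worth 5.14 FPKM. For silk minus no device, gclm.L, gclc.L, osgin1.L and keap1.S lay between −0.62 and −0.36 with standard errors of 0.783 to 1.026, turned positive (0.33 to 0.45) under median-of-ratios scaling, and the median of all genes was −0.85. prdx6.L stood at 2.55 ± 1.042 in that contrast, and gpx4.S at −3.12 ± 1.62, a value that rests on the 2 blastema silk libraries at 0 and ran from −5.30 to −1.71 over the alternatives. Of the 190 other pathway genes, 0 passed limma with Benjamini-Hochberg adjustment over all genes in either contrast, as did 0.00241% of all genes for silk and 0% for progesterone. At an unadjusted p under 0.05 there were 4 higher and 9 lower in each contrast, where 0.64% of all genes were higher and 10% lower for silk, and 0.818% and 4.57% for progesterone. The 4 with the smallest unadjusted p were txndc17.S, acsl4.S, cbs.L and maff.L for silk, and maff.L, bach1.L, fth1.L and park7.L for progesterone. Without the averaged blastema progesterone libraries 1 and 3, limma called 6 of them for progesterone, and limma-voom called 3 for silk.

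Marker levels of other cell types also differed between these groups. Erythrocytes, which are nucleated in frogs, were read by 20 marker gene copies that included globins, alas2 and gata1. Their summed FPKM in blastema was 3112 to 63430 with progesterone, 15990 to 51650 with silk and 4319 to 14290 without a device, with 20, 17 and 19 of the 20 copies above 0 in at least 1 library, and the globin copy hbd.S at 0 with silk and without a device. In stump it was 29360 to 91080 with progesterone, 22790 to 69780 with silk and 3626 to 5382 without a device, and in brain 653 to 1440. Skeletal muscle markers ran the other way, at 2903 to 3794 FPKM in blastema with progesterone, 1008 to 2753 with silk and 16250 to 30360 without a device. In stump they summed to 4453 to 24350 FPKM with progesterone, 5914 to 12210 with silk and 46150 to 75610 without a device. Neuron and glia markers (31 copies) summed to 187 to 826 FPKM in stump with progesterone, 560 to 931 with silk and 138 to 149.8 without a device. In blastema they summed to 162 to 531 FPKM with progesterone, 119.8 to 915 with silk and 669 to 896 without a device. In such bulk samples fewer cells of a type and less RNA per cell cannot be told apart, and the part of these cell types in the differences of the members was not tested.

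**Figure D4:**
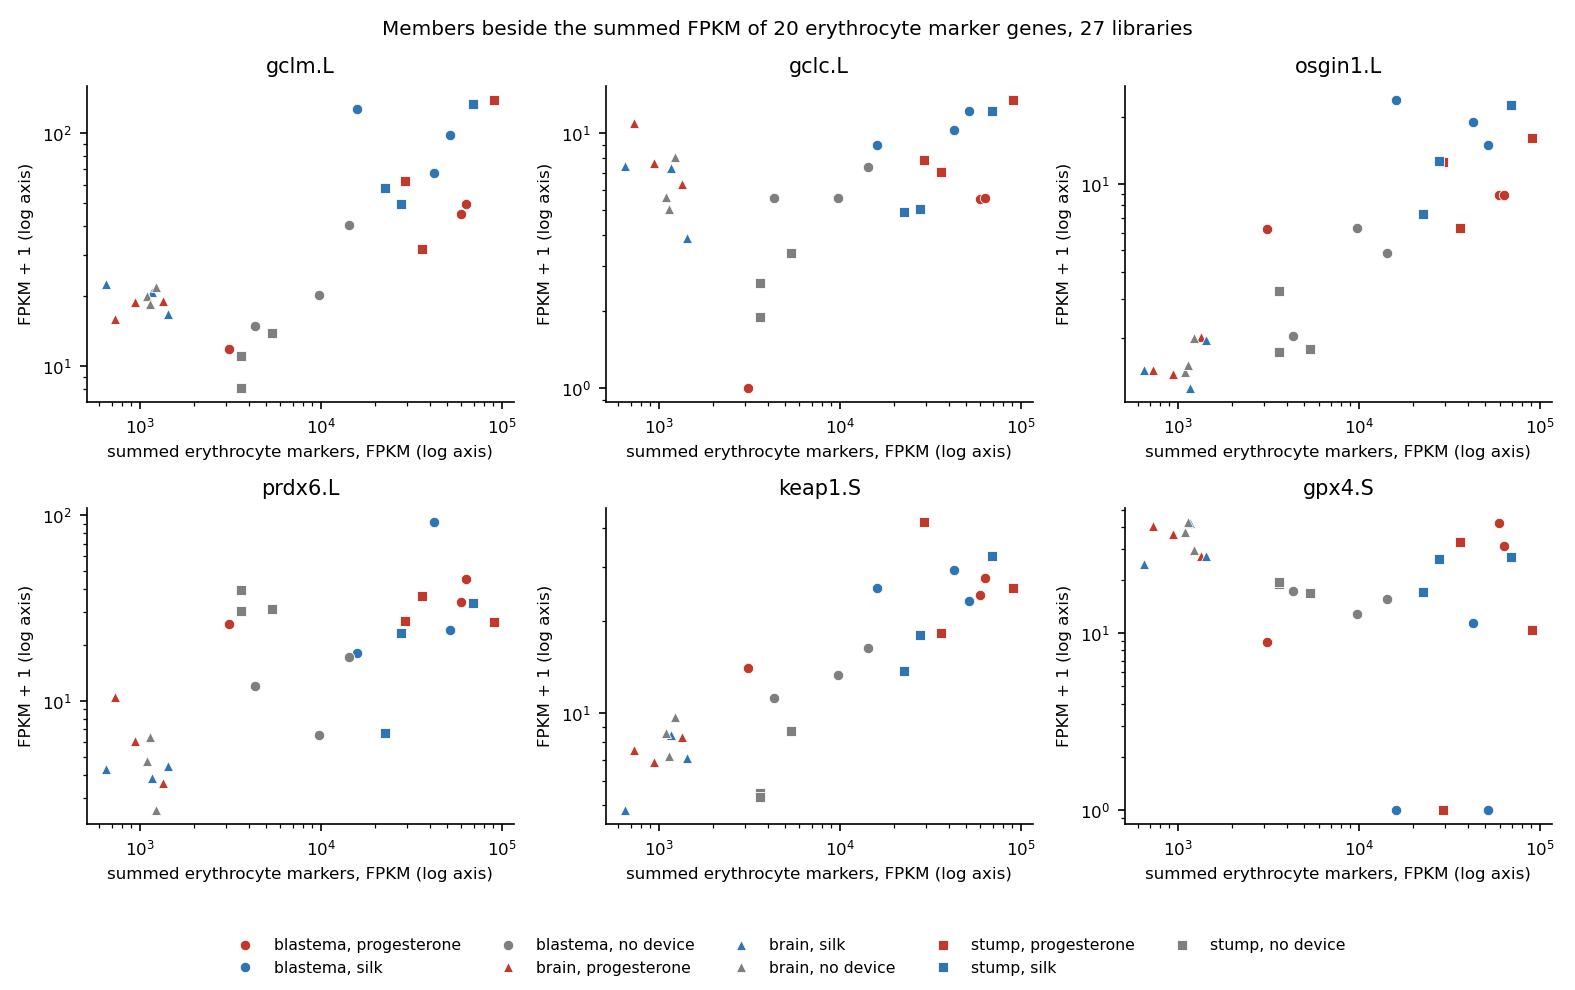
FPKM + 1 of each member (log axis) against the summed FPKM of 20 erythrocyte marker copies (log axis) in 27 libraries; colour marks the treatment and shape the tissue. The 5 limb libraries with the lowest marker sums, 3112 to 5382 FPKM, are also the 5 with the lowest gclm.L, 7.07 to 13.9 FPKM. They include the near-identical stump no device 1 and 3, which count as 1 sample elsewhere.

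The plot against erythrocyte markers places the low blastema progesterone library beside the stump without a device. Blastema progesterone 2 had 10.8 FPKM of gclm.L at a marker sum of 3112 FPKM, while progesterone 1 and 3 had 44.1 and 48.6 FPKM at 59840 and 63430 FPKM. Blastema silk 3 had the highest gclm.L of its group, 126.4 FPKM, at the lowest marker sum of its group, 15990 FPKM. In brain gclm.L was at 15.0 to 21.4 FPKM although the marker sum there was lower than in any limb library. Myeloid leukocyte markers summed to 180 to 996 FPKM in blastema with progesterone, 436 to 864 with silk and 284 to 543 without a device, and in stump to 429 to 914, 216 to 1010 and 195 to 363 FPKM in the same treatments.

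The genes whose levels were most like those of each member were ranked by Pearson's r of log2(FPKM + 1) over the 24 samples, among 12381 other genes, as a description. The 3 genes given for each member are the highest ranked that carry a gene symbol and are no member or copy of one, so genes without a symbol can rank above them. All samples share the depth and tissue differences given above. For gclm.L they were abcb6.L, a porphyrin transporter (r = 0.93), fth1.L, a ferritin heavy chain (0.93), and vipr1.S, a receptor for vasoactive intestinal peptide (0.91). For osgin1.L they were slc26a2.L, a sulfate transporter (0.95), slc25a37.L, the mitochondrial iron importer mitoferrin (0.93), and the adaptor gab3.L (0.93). For keap1.S they were gab3.L (0.94), ifrd1.S (0.93) and maff.S, a small Maf protein that pairs with NRF2 (0.93). gclc.L had weaker matches in atf6.L, tsc22d1.L and slc20a1.S (0.80 to 0.85).

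Among genes with a symbol, those closest to prdx6.L were itgb2.L, a leukocyte integrin chain, slurp1l.S and the proton channel hvcn1.S (0.88 to 0.89), and those closest to gpx4.S were gpr155.S, tmx2.L and ssbp2.L (0.89 to 0.91). Over the 16 limb samples alone, fth1.L was the closest named gene to gclm.L (r = 0.95) and cbr3.S, a carbonyl reductase, the closest to keap1.S (0.94). For gclc.L it was bcl2l10.L (0.94), a closer match than any over all samples. For prdx6.L it was alox5ap.L (0.85) and for gpx4.S tmx2.L (0.90). There the gene closest to osgin1.L among all ranked was gclm.L itself (r = 0.89), and osgin1.L stood in place 14 for gclm.L.

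The wider pathway was read in 8 lists of related genes, 196 copies of which 190 are not members. In the 9 comparisons between treatments, 0 of these 190 copies passed limma with Benjamini-Hochberg adjustment over all genes, as did 0% of all genes tested except in brain between progesterone and silk, where 0.0221% did. At an unadjusted p under 0.05, progesterone against no device had 2 copies higher and 0 lower in blastema, 26 higher and 5 lower in stump and 0 higher and 2 lower in brain. Silk against no device had 5 higher and 8 lower in blastema, 18 higher and 12 lower in stump and 1 higher and 6 lower in brain. Of all genes tested, 1.41% were higher and 2.29% lower at that threshold for progesterone against no device in blastema, 7.82% and 2.04% in stump and 1.53% and 1.37% in brain. For silk against no device these shares were 1.06% and 6.61% in blastema, 9.8% and 3.19% in stump and 0.979% and 3.73% in brain. Progesterone against silk had 1 copy higher and 3 lower in blastema (4.87% and 0.77% of all genes), 5 and 1 in stump (1.76% and 2.08%) and 10 and 2 in brain (6.25% and 1.68%). Against no device in stump, limma-voom on the estimated reads called 18 of these copies for progesterone and 24 for silk. The fit of separate stump libraries called 5 and 12.

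By list, the median difference in stump for regulators of keap1 and nrf2 (32 copies) was 0.66 for progesterone and 0.72 for silk, each minus no device, beside 0.57 and 0.52 for all genes. Of these 32 copies, 8 had an unadjusted p under 0.05 in each comparison, all higher, and 0 passed the adjusted test. Of all genes tested, 7.82% were higher at that threshold for progesterone and 9.8% for silk. The 32 copies include keap1.L, the other copy of a member. The peroxiredoxin and thioredoxin list (26 tested copies) had medians of −0.44 and −0.82, and the glutathione transferases (14 tested) −0.48 and −0.64. Superoxide and peroxide removal (14 tested) had medians of −0.66 and −0.48. For the synthesis of glutathione and supply of its precursors (16 tested), the medians of 0.49 and 0.14 lay below those of all genes. In blastema the medians of silk minus no device were 0.30 for glutathione peroxidases, reductase and glutaredoxins and 0.30 for NRF2 target enzymes outside glutathione, beside −0.36 for all genes.

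**Figure D5:**
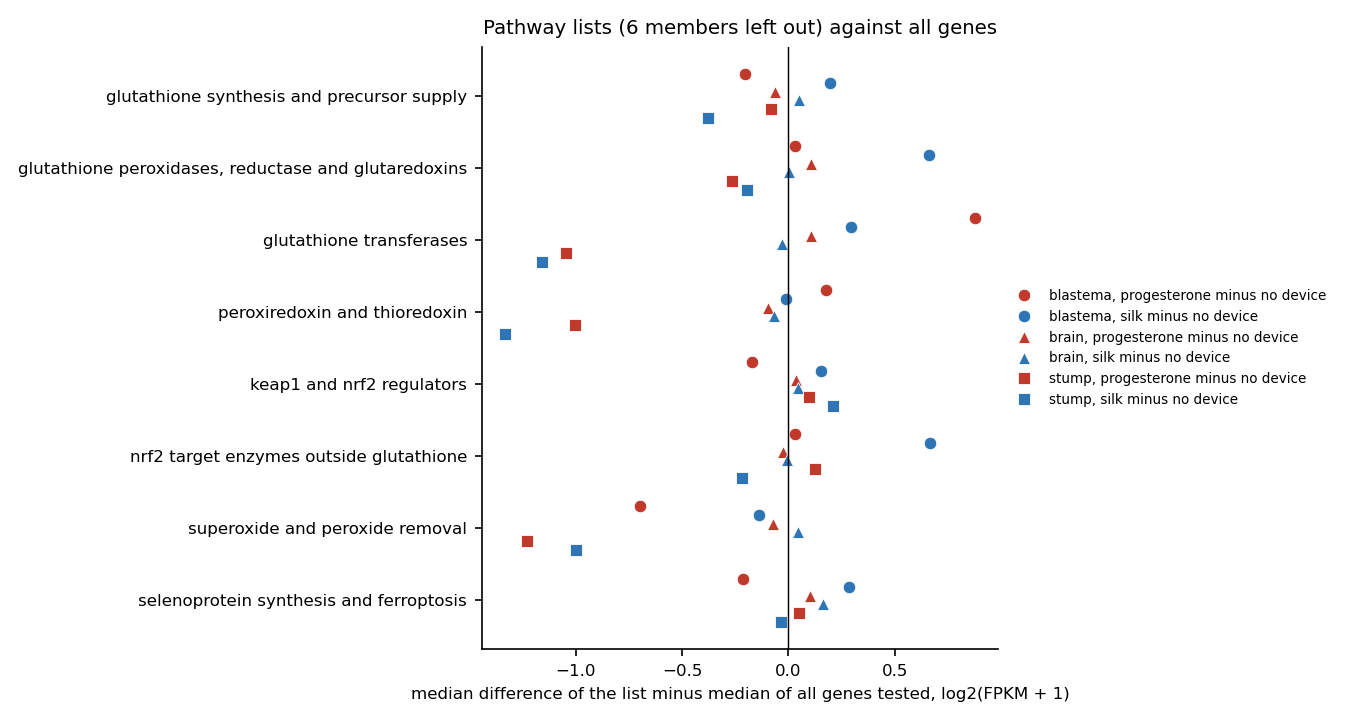
Median difference of each pathway list, without the 6 members, minus the median of all genes tested (log2(FPKM + 1) scale) for progesterone and silk against no device in 3 tissues. In stump the peroxiredoxin and thioredoxin list lies 1.00 (progesterone) and 1.33 (silk) below all genes, and the list of keap1 and nrf2 regulators 0.10 and 0.21 above.

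The plot of lists leaves the members out, since they were chosen on their own values. It keeps their other copies keap1.L, gpx4.L and prdx6.S, which can share reads with them. The lists too were chosen with earlier results of these data known, so their medians are descriptions. NRF2 itself, nfe2l2.L, was at 59.2, 10.6 and 60.04 FPKM in blastema with progesterone, at 25.5, 41.8 and 102.5 FPKM with silk and at 20.5, 28.8 and 28.2 FPKM without a device. In stump nfe2l2.L was at 56.5, 47.5 and 63.3 FPKM with progesterone, at 57.4, 34.7 and 68.9 FPKM with silk and at 17.6, 32.7 and 19.0 FPKM without a device. Every stump library with a device was above those without, where 29.3% of all genes tested were higher in this way with progesterone and 22.8% with silk. The differences of nfe2l2.L from no device were 1.15 ± 0.56 for progesterone and 1.05 ± 0.56 for silk, and it did not pass the adjusted test. The copy nfe2l2.S was at 18.7, 25.4 and 25.7 FPKM in stump with progesterone, at 19.7, 11.6 and 34.1 FPKM with silk and at 7.39, 14.3 and 9.05 FPKM without a device, so that progesterone alone of the device groups was apart from no device there.

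Further NRF2 targets of the named set gave mixed patterns. hmox1.L, a heme oxygenase, was at 32.2, 0 and 41.7 FPKM in blastema with progesterone, at 51.5, 4.07 and 8.51 FPKM with silk and at 12.4, 8.04 and 24.4 FPKM without a device, with all groups overlapping. In stump hmox1.L was at 35.7, 22.3 and 38.7 FPKM with progesterone, at 6.12, 3.52 and 40.6 FPKM with silk and at 3.88, 4.83 and 6.68 FPKM without a device. The progesterone libraries there lay above all those without a device, by 2.42 ± 0.86, and the gene did not pass the adjusted test (limma adjusted p = 0.409). Its copy hmox1.S was also apart and higher in stump with progesterone than without a device, by 1.53 ± 0.66 (limma adjusted p = 0.494). Of all genes tested, 29.3% were apart and higher in that comparison. The groups of hmox1.S overlapped in blastema. nqo1.L, a quinone reductase, was between 0 and 8.60 FPKM in all limb libraries. gss.L, which adds glycine in the last step of glutathione synthesis, was at 12.6, 8.24 and 11.7 FPKM in blastema with progesterone, at 13.9, 7.23 and 35.9 FPKM with silk and at 7.94, 7.14 and 14.2 FPKM without a device. In stump gss.L was at 39.2, 9.78 and 13.4 FPKM with progesterone, at 15.0, 23.0 and 42.7 FPKM with silk and at 6.18, 8.18 and 8.05 FPKM without a device. gsr.L, which regenerates reduced glutathione, was between 1.17 and 19.3 FPKM in limb libraries.

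Both txnrd1 copies stood apart in stump progesterone 1. txnrd1.L, a thioredoxin reductase, was at 49.8, 2.99 and 4.66 FPKM in stump with progesterone, at 1.89, 0.98 and 1.21 FPKM with silk and at 0.95, 3.27 and 1.47 FPKM without a device. Its other copy, named txnrd1.S by RefSeq, was at 35.5, 2.13 and 1.73 FPKM with progesterone. In blastema both copies were higher in every progesterone library than in any without a device, as were 3.72% of all genes tested. The differences were 0.95 ± 0.61 for txnrd1.L and 1.21 ± 0.84 for txnrd1.S, and neither passed the adjusted test (limma adjusted p = 0.994 for each). Those blastema levels were low, at 4.88, 5.76 and 4.99 FPKM with progesterone and 1.45, 2.13 and 3.64 FPKM without a device for txnrd1.L. slc7a11.S (RefSeq name), the cystine importer that feeds glutathione synthesis, was at 16.2, 1.39 and 18.4 FPKM in stump with progesterone, at 1.11, 1.70 and 2.78 FPKM with silk and at 0.48, 3.67 and 1.38 FPKM without a device, with progesterone 1 and 3 high. slc7a11.L was at 1.14, 0.21 and 0.38 FPKM in stump with progesterone and at 1.19, 0 and 1.41 FPKM with silk, and is listed at 0 in all 3 libraries without a device. The authors' deposited tables give it a q of 0.0103 for progesterone and 0.000766 for silk there, each over no device. Stump progesterone 1 also had the highest gclm.L of all 27, 137.1 FPKM, the highest gclc.L, 12.4 FPKM (stump silk 3 followed within stump at 132.3 and 11.2 FPKM), and a summed epidermis marker level of 1283 FPKM, against 249.8 and 309.1 FPKM in the other 2 stump progesterone libraries. The summed epidermis markers of stump without a device were 194.8, 916.8 and 189 FPKM. The part of epidermis in these values was not tested.

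The 4 pathway copies with the smallest unadjusted p in each limb comparison, none of them called, are given as levels. Between progesterone and no device in stump they were nfe2.L, fth1.S, bach1.L and maff.L. nfe2.L, the blood cell relative of NRF2, was at 35.8, 22.8 and 27.7 FPKM with progesterone and at 1.90, 4.03 and 2.77 FPKM without a device. fth1.S was at 5164, 5412 and 3327 FPKM with progesterone and at 400.1, 856.7 and 414.7 FPKM without a device. bach1.L (RefSeq name), a heme-binding repressor of NRF2 targets, was at 27.6, 24.0 and 27.02 FPKM with progesterone and at 2.84, 4.74 and 2.89 FPKM without a device. maff.L was at 32.5, 19.8 and 44.9 FPKM with progesterone and at 3.72, 5.94 and 4.58 FPKM without a device. Between silk and no device in stump they were nfe2.L, bach1.S, fth1.S and slc40a1.S, the iron exporter ferroportin, which was at 7.59, 7.85 and 10.6 FPKM with silk and at 43.1, 33.5 and 49.7 FPKM without a device.

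Between silk and no device in blastema they were slc40a1.S, akr1b1.L, txndc17.S and fth1.L. slc40a1.S was at 3.53, 0 and 2.86 FPKM with silk and at 14.8, 14.3 and 9.72 FPKM without a device. fth1.L was at 727.9, 681.4 and 867.5 FPKM with silk and at 192.5, 231.4 and 256.4 FPKM without a device. txndc17.S, a thioredoxin-related protein, was at 16.0, 13.9 and 7.29 FPKM with silk and at 4.71, 0 and 2.89 FPKM without a device. akr1b1.L, aldose reductase, was at 0, 4.51 and 3.52 FPKM with silk and at 12.88, 11.04 and 21.46 FPKM without a device. Between progesterone and silk in blastema slc40a1.S, fth1.L and akr1b1.L were again among the 4, with gsta1.S, a glutathione transferase. fth1.L was at 466.2, 117.5 and 517.1 FPKM with progesterone, below every silk library, where 1.8% of all genes tested were lower in this way.

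Between progesterone and no device in blastema the 4 were txndc17.S, ggt1.L, gsto2.L and park7.S. ggt1.L, which breaks down glutathione outside cells, was at 9.19, 2.71 and 11.9 FPKM with progesterone and at 24.5, 26.0 and 38.8 FPKM without a device. gsto2.L was at 15.3, 152.5 and 15.1 FPKM with progesterone and at 0, 32.9 and 5.51 FPKM without a device. Between progesterone and silk in stump the 4 were sqstm1.L, txnrd1.L, slc7a11.S and gstt1.L. sqstm1.L, whose protein p62 binds KEAP1, was at 186.5, 147.9 and 158.5 FPKM with progesterone and at 59.4, 49.7 and 94.8 FPKM with silk.

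In brain, between progesterone and no device they were aldh3a2.S, txnrd3.S, sephs2.L and prdx4.L, between silk and no device they were gstk1.L, txnip.L, hpgds.S and cul3.S, and between progesterone and silk they were akr1b1.L, txnip.L, txndc5.L and rbx1.L. aldh3a2.S, a fatty aldehyde dehydrogenase, was at 20.7, 17.1 and 19.3 FPKM with progesterone and at 32.5, 32.8 and 36.3 FPKM without a device. txnip.L, an inhibitor of thioredoxin, was at 14.7, 19.8 and 21.3 FPKM with progesterone, at 1.57, 4.35 and 13.8 FPKM with silk and at 19.2, 19.5 and 19.7 FPKM without a device.

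Tissues without a device were compared over the same lists. Between brain and stump without a device, 10 of the 190 copies rose and 6 fell (limma, adjusted p under 0.05), where 15.2% of all genes rose and 2.19% fell. ggt7.L, a member of the gamma-glutamyltransferase family, was at 26.6 ± 0.51 FPKM in brain and 0.12 ± 0.17 FPKM in stump (SD, n = 2 each), and rose by 4.63 ± 0.51 (limma adjusted p = 2.36e-06). Both gpx3 copies, for a secreted glutathione peroxidase, rose, by 5.77 ± 0.80 for gpx3.S and 5.21 ± 0.95 for gpx3.L. chac1.L, which degrades glutathione, fell by 4.04 ± 0.61, at 0.71 ± 0.51 FPKM in brain and 29.3 ± 17.8 FPKM in stump. ggt7.S (RefSeq name), the small Maf gene mafg.L and aldh3a2.S also rose, by 3.92, 2.94 and 3.02. txnip.S fell by 2.88, txnip.L by 3.30, tfrc.L, the transferrin receptor, by 2.70 and the aminopeptidase anpep.L by 1.87. aldh3a2.S was not called with a pseudocount of 0.1, under median-of-ratios scaling, or without the averaged libraries 1 and 3 of either tissue. tfrc.L was not called without brain no device 2 or without the averaged stump no device 1 and 3, and anpep.L without brain no device 2 or stump no device 2. Between blastema and stump without a device 0 copies rose and 2 fell, where 3.77% of all genes rose and 0.307% fell. They were park7.L (DJ-1), which fell by 2.22 ± 0.49 (limma adjusted p = 0.0181), and txn2.L, a mitochondrial thioredoxin, which fell by 1.79 ± 0.47 (limma adjusted p = 0.0382). bach1.L, maff.L and sod3.S came next by unadjusted p and were not called. Without blastema no device 1 limma called 1 copy, and without blastema no device 3, stump no device 2 or the averaged stump no device 1 and 3 it called 0. Between brain and stump, 8 copies were called without brain no device 2 and 9 without the averaged libraries 1 and 3 of either tissue.

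The authors' deposited tables hold their own test, of a kind the headers do not state. There 13 pathway copies had a q under 0.05 and a higher level for progesterone over no device in blastema, and 0 a lower one, where 0.734% of genes were higher and 0.748% lower. They included blvrb.L, a biliverdin reductase (log2 fold change 2.28 in the authors' deposited table), sod1.S (1.94), prdx2.L (1.82) and bach1.S (1.74). For silk over no device in blastema the authors' deposited table had 3 higher, fth1.L (2.19), sod1.S (1.93) and ncoa4.L (1.71), and 0 lower, where 0.0833% of genes were higher and 0.236% lower. In stump the authors' deposited tables had 22 higher and 29 lower for progesterone over no device (8.28% and 7.03% of genes), and 18 higher and 47 lower for silk over no device (18.2% and 8.32% of genes). Between silk and progesterone, and in all brain comparisons, 0 of these copies had such a q in the authors' deposited tables. The headers do not state whether that test counted near-identical libraries, such as stump no device 1 and 3, as separate samples. This limit holds for each authors' q given here. In limma against no device in stump, 0 of these copies were called with such libraries averaged. With separate libraries 5 were called for progesterone and 12 for silk. Limma-voom on estimated reads, with near-identical libraries summed into 1 sample, called 18 for progesterone and 24 for silk. The part of the near-identical libraries in the authors' calls was not tested.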

How the data were processed

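There are 9 tables deposited by the authors, each for 2 treatments of 1 tissue. Per the submitters' processing notes, FastQC, Trimmomatic, STAR, RSEM and edgeR were used, with no versions, and per the labels' protocols, 1 µg of total RNA was depleted of ribosomal RNA, amplified for 10 cycles and read for 40 nt. No genome build or strand setting is named in the labels or headers. The library values deposited by the authors are taken as FPKM; the headers name no unit, and the values are decimals whose sums differ between libraries, unlike counts, TPM or CPM. The deposited group means, a signal the headers call average CPM, served to estimate gene lengths, and the deposited q-values, p-values and log2 fold changes come from the authors' own test. Scaled by estimated depth, only 63.3% to 70.6% of low values per library came within 0.1 of a whole number of reads. Read counts therefore could not be rebuilt, and the differences reported do not come from a count test. Read estimates served the chi-square comparison of library pairs and limma-voom, an alternative. An FPKM of 0 was taken to allow a level worth up to 3 expected reads in that library. Such limits cover counting error only.

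Limma 3.58.1 in R 4.3.3 was run on log2(FPKM + 1), per tissue, with group means and no block, over genes that reached an FPKM of 1 in 3 or more samples, and p-values were adjusted by Benjamini-Hochberg over all genes tested, with 0.05 as the threshold. Fold changes on this scale understate the change of low genes. Contrasts between tissues came from one fit of all samples and contrasts of the limb tissues' responses from one fit of the limb samples. Estimated reads of each library pair were compared per gene with chi-square tests, in genes with at least 20 reads over both libraries, and pairs with fewer than 1% of genes past an adjusted p of 0.05 were called near-identical. The depth estimate and the limma fit were tested on simulated data. Alternatives were pseudocounts of 0.1 and 5, a filter at 5 FPKM, median-of-ratios scaling, scaling without smad4.1.S, separate libraries, a replicate block, limma-trend, limma-voom and each sample left out. The members and the gene lists were chosen with earlier results of these data known. Of 139 symbols in the 8 pathway lists, 121 matched the tables, and 12 copies were named through RefSeq (assembly Xenopus_laevis_v10.1). Genes named are the members, their other copies and a set of known NRF2 targets (1 gene of which is not reported here), the 10 called pathway copies with the smallest adjusted p, and the 4 with the smallest unadjusted p and a mean of at least 5 FPKM.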

Additional observations from a re-analysis of the deposited data

Results flagged for a closer look

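The difference of gclc.L between progesterone and no device was −1.38 in blastema and 1.72 in stump on the log2(FPKM + 1) scale, with the libraries of the groups apart in opposite directions. The difference between tissues was not tested, because the gene was chosen on these comparisons. In blastema the groups were apart by 0.02 FPKM, and the progesterone library at 0 FPKM allows up to 5.14 FPKM.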

How the results depend on the processing

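Of the values of members and their other copies under alternatives, 1377 moved by less than 1 SD (58 with a change of sign) and 80 by more (13 with a change of sign). Of the called genes' values, 152 kept their call and direction, 17 lost the call (park7.L, txn2.L, aldh3a2.S, anpep.L and tfrc.L), and 0 reversed. In 8 comparisons the count of other pathway genes called was 0 in the fit reported and under every alternative across all samples. Between progesterone and no device in stump it was 0 as reported, 2 with a pseudocount of 5, 5 with separate libraries and 18 with limma-voom. Between silk and no device in stump it was 0, 12 with separate libraries and 24 with limma-voom. Between blastema and stump without a device it was 2, 5 with a pseudocount of 0.1, 7 with a pseudocount of 5, 8 with a filter at 5 FPKM, 11 with median-of-ratios scaling, 1 without smad4.1.S, 26 with separate libraries, 5 with limma-trend, 54 with limma-voom and 0 to 2 with 1 sample left out. Between brain and stump it was 16, 25 with a pseudocount of 5, 37 with separate libraries, 64 with limma-voom and 8 to 13 with 1 sample left out. For the difference between the limb tissues it was 0, 3 for silk with limma-voom and 0 to 6 for progesterone with 1 sample left out. Separate libraries count near-identical pairs as independent; the cause of the other moves was not tested.

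A replicate block over separate libraries gave 2 for progesterone and 8 for silk in stump, 25 between blastema and stump and 36 between brain and stump, and changed no other count. Same-numbered libraries of different treatments were compared within each tissue. Their deviations correlated over 0.1 in 1 of 9 pairs in blastema, 1 of 9 in brain and 3 of 9 in stump. The numbers were therefore not taken to pair treatments. Whether same-numbered libraries of different tissues came from the same frog was not examined. Contrasts between tissues treated them as independent.

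Groups hold 2 or 3 samples. The blastema silk libraries and blastema progesterone 2 are shallow, so low genes such as gclc.L, osgin1.L and gpx4.S rest on a few reads there. Blastema without a device also held few reads of these genes. Per library it had 6.0 to 11.3 estimated reads of gclc.L, 2.0 to 6.1 of osgin1.L and 3.4 to 7.8 of gpx4.S.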
